A study of Mus musculus with 19 samples.

Results

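Toll-like receptors were followed here as a family of 10 genes, Tlr1, Tlr2, Tlr3, Tlr4, Tlr5, Tlr6, Tlr7, Tlr8, Tlr9 and Tlr13, of the 56980 genes in the count table. The members were taken by symbol, matched to the Ensembl identifiers of the table, and all 10 passed the filter on low counts, as did 18739 genes in total. The RNA came from CD11b+ brain cells of male PARK7/DJ-1 KO mice and their WT littermates aged 3 to 4 months, collected 6 h after an intraperitoneal injection of either LPS, a glycolipid of the bacterial outer membrane, at 4 µg per g of body weight or PBS. Each library was 1 mouse, with 4 WT PBS, 5 WT LPS, 5 KO PBS and 5 KO LPS libraries. The line had been backcrossed to C57BL/6NCrl, and the KO mice carried a germline gene trap in Park7, the gene for DJ-1, so that the loss was not limited to microglia. Cells were pulled from brain without olfactory bulb and cerebellum with CD11b magnetic beads, a surface protein that monocytes, neutrophils and border-associated macrophages also carry.

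Toll-like receptors are membrane proteins that recognise molecules of microbes, and of damaged cells, through a horseshoe of leucine-rich repeats. Tlr1, Tlr2, Tlr4, Tlr5 and Tlr6 work at the cell surface, whereas Tlr3, Tlr7, Tlr8, Tlr9 and Tlr13 sit in endosomes and read nucleic acids. Ligand binding recruits adaptors of the MyD88 or TRIF type and leads to NF-kB, MAP kinase and interferon regulatory factor activity, and among brain cells microglia are known for carrying most of the family.

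The deposited table held 11936364 to 22788884 reads per library. Every member had at least 115 reads in every library, against a floor of 3 reads that corresponded to 0.139 to 0.256 CPM (read counts per 1000000, with library sizes corrected for composition by TMM). Park7 stood at 20.6 to 32.1 CPM in the 9 WT libraries and at 0.457 to 5.38 CPM in the 10 KO libraries, so no library went against its genotype label. The microglial genes P2ry12, Tmem119, Csf1r and Itgam were present in all libraries, with Tmem119 between 487 and 2788 CPM. Oligodendrocyte markers varied from 477 to 11132 CPM across libraries, and the highest library of each group held 6567 CPM or more.

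For 8 of the 10 members the RefSeq table held a start site (GRCm38.p6), in 10 entries; Tlr4 and Tlr7 were not among them. In the 250 bases upstream, 6 motifs were searched on both strands, with capitals marking the matches below. The promoters of Tlr2, Tlr1 and Tlr6 are shown because these partners in lipoprotein recognition rose after LPS, and that of Tlr5 because the gene fell. The RefSeq positions differ from those of the GRCm39 build used for the counts.
Tlr2, chr3:83841609-83841858, minus strand: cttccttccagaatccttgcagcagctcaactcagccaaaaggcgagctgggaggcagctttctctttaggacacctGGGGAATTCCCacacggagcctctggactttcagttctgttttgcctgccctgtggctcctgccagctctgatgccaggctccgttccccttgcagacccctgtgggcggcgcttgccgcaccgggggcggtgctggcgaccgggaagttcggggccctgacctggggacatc
Tlr1, chr5:64933559-64933808, minus strand: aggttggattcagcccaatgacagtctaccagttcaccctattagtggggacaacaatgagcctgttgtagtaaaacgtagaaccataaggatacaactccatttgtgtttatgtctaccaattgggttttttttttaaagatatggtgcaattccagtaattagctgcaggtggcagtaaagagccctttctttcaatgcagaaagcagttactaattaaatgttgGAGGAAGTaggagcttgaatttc
Tlr6, chr5:64959167-64959416, minus strand: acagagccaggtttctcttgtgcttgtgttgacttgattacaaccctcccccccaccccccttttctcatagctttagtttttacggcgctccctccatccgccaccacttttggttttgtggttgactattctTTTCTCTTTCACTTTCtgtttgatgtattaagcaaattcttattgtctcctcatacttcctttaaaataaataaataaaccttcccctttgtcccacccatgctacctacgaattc
Tlr5, chr1:182954538-182954787, plus strand: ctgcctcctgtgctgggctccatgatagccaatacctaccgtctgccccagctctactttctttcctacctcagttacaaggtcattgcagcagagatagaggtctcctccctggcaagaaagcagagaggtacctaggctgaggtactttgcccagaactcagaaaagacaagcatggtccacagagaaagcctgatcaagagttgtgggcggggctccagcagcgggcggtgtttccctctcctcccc
In Tlr2 the capitals hold 2 overlapping matches to the NF-kB consensus, GGGGAATTCC at 173 to 164 bases and GGGAATTCCC at 172 to 163 bases upstream. An NF-kB match was present in 3.90% of 32851 promoters of the same length, and also in that of Tlr3, at 211 to 202 bases upstream. The Tlr1 entry holds GAGGAAGT, a PU.1 motif found in 2.44% of promoters, and a second Tlr1 entry, not shown, holds the E-box CACGTG, found in 6.02%. In Tlr6 the capitals hold 2 overlapping matches to the interferon response element GAAANNGAAA, read on the opposite strand and found in 2.98%, while a second Tlr6 entry held none of the motifs. Tlr9 held the AP-1 motif TGANTCA, found in 6.75%, at 58 to 52 bases upstream. Tlr5, Tlr8 and Tlr13 held no match, and the cyclic AMP element TGACGTCA, found in 1.55%, was in none of the entries. A match of letters is a description only and was not tested for binding.

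The first question was how the family responded to LPS within each genotype, tested with edgeR's quasi-likelihood test in 1 fit of all 19 libraries, with Benjamini-Hochberg adjustment over all genes. A gene was called when its adjusted p was under 0.05 and its log2 fold change at least 0.5 in size. In WT mice 4 members rose (Tlr1, Tlr2, Tlr6 and Tlr7) and 2 fell (Tlr4 and Tlr5), against a background of 18.4% of all tested genes called higher and 17.4% called lower. In KO mice 6 members rose (Tlr1, Tlr2, Tlr6, Tlr7, Tlr8 and Tlr13) and the same 2 fell, against 20.1% and 19% of all genes. The median log2 fold change over the 10 members was 0.45 in WT and 0.62 in KO, beside -0.06 and -0.01 over all tested genes. Libraries of the PBS and LPS groups did not overlap for Tlr1, Tlr2 and Tlr7 on the higher side and for Tlr4 and Tlr5 on the lower side in either genotype, while 20.8% and 17.0% of all genes were so separated in WT and 16.2% and 16.6% in KO. In bulk RNA, fewer cells of a type and less RNA per cell cannot be told apart.

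**Figure D1:**
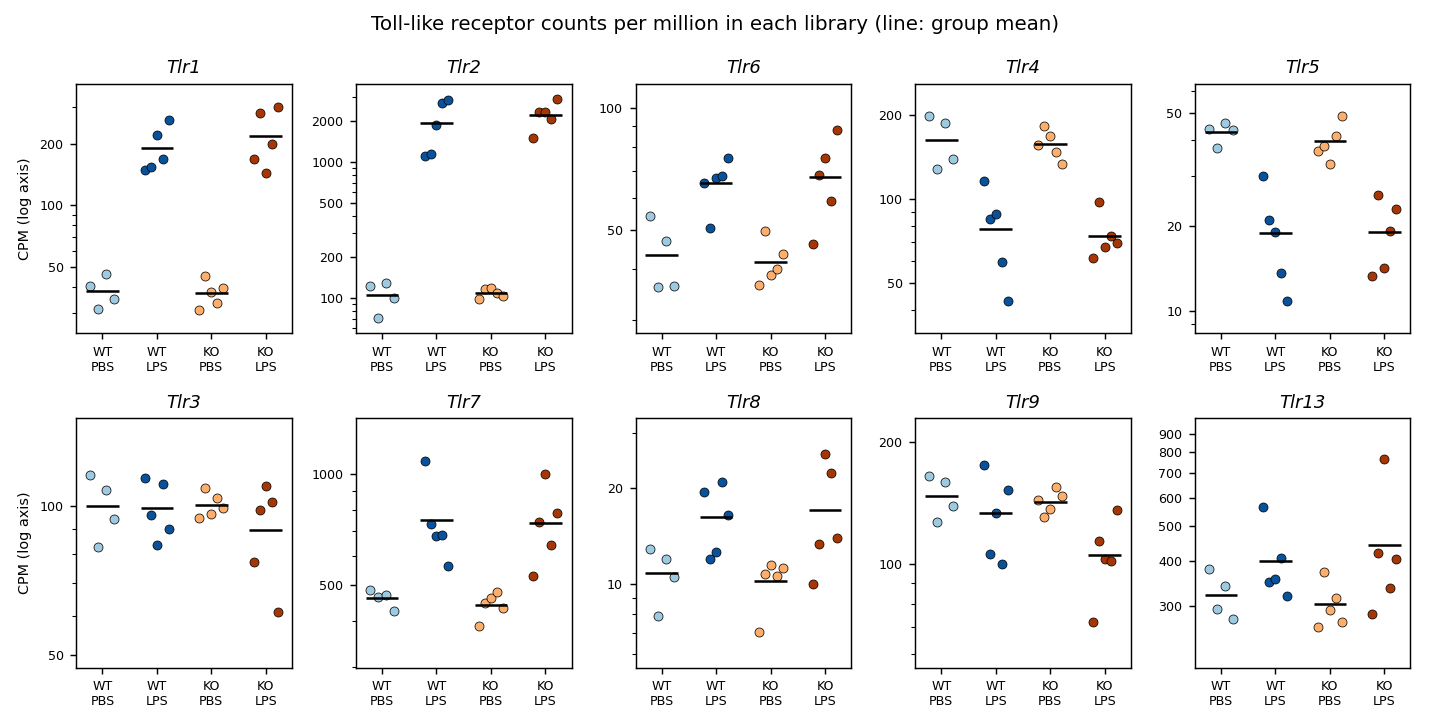
Level in CPM of the 10 Toll-like receptor genes in each library on log axes that differ between panels, with 1 point per mouse in replicate order and a line at the group mean (n = 4 for WT PBS and 5 for the other groups). Points of the LPS groups lie above all PBS points for Tlr1, Tlr2 and Tlr7 and below them for Tlr4 and Tlr5 within each genotype.

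Tlr2 and Tlr1, which act together on bacterial lipoproteins, had the largest changes of the family in both genotypes. Tlr2, which pairs with Tlr1 to bind triacylated and with Tlr6 to bind diacylated lipoproteins, is a single-exon gene in this annotation at chr3:83743576-83749074 (GRCm39, minus strand). Its level in the WT PBS libraries was 123, 71.8, 129 and 99.9 CPM, and in the WT LPS libraries 1111, 1148, 1874, 2680 and 2856 CPM. In KO mice the PBS libraries held 97.7, 117, 118, 108 and 104 CPM and the LPS libraries 1486, 2313, 2337, 2064 and 2881 CPM. The lowest LPS library was thus far above the highest PBS library in both genotypes. Tlr2 rose 18.2-fold in WT (log2 fold change 4.19 ± 0.31 (SE), adjusted p = 7.49e-09) and 20.3-fold in KO (log2 fold change 4.34 ± 0.28, adjusted p = 1.09e-09).

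Tlr1, the partner of Tlr2 for triacylated lipoproteins, came next. Its level was 40.5, 31.4, 46.1 and 35.1 CPM in WT PBS and 149, 153, 219, 169 and 261 CPM in WT LPS. In KO mice it was 31.1, 45.2, 38.1, 33.6 and 39.7 CPM at PBS and 169, 282, 143, 199 and 301 CPM after LPS. Every PBS library was under 50 CPM and every LPS library over 140 CPM. The rise was 4.96-fold in WT (log2 fold change 2.31 ± 0.23, adjusted p = 1.86e-07) and 5.83-fold in KO (log2 fold change 2.54 ± 0.21, adjusted p = 1.6e-08).

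Tlr6, the partner for diacylated lipoproteins, changed less than Tlr1 did. It went from 43.4 ± 8.65 CPM (SD, n = 4) to 65.3 ± 8.98 CPM (n = 5) in WT, and from 41.7 ± 5.19 to 67.5 ± 16 CPM (n = 5 each) in KO. The rise was 1.5-fold in WT (log2 fold change 0.59 ± 0.17, adjusted p = 0.00903) and 1.62-fold in KO (0.69 ± 0.16, adjusted p = 0.00146). The groups overlapped in both genotypes, since WT LPS replicate 2 held 50.7 CPM beside 54.0 CPM in WT PBS replicate 1, and KO LPS replicate 1 held 46.2 CPM beside 49.8 CPM in KO PBS replicate 2. Tlr1 (chr5:65082022-65090941) and Tlr6 (chr5:65108704-65203497) lie 17.8 kb apart on the minus strand of GRCm39. Of all stretches of 75 bases, the read length, in their transcripts, 9.90% of those of Tlr1 and 7.00% of those of Tlr6 were shared between the genes. A single read from such a stretch cannot be assigned by sequence alone. The reads were paired, and how many pairs were affected was not counted.

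Tlr4, the receptor for LPS itself, fell. Its gene lies at chr4:66745783-66849936 on the plus strand. The WT PBS libraries held 199, 128, 187 and 139 CPM and the WT LPS libraries 116, 84.6, 88.6, 59.4 and 43.2 CPM. The KO PBS libraries held 156, 183, 168, 148 and 133 CPM and the KO LPS libraries 61.8, 97.4, 67.6, 73.8 and 69.5 CPM. All LPS libraries lay under all PBS libraries in both genotypes. The level was 2.09-fold lower after LPS in WT (log2 fold change -1.06 ± 0.22, adjusted p = 0.000578) and 2.13-fold lower in KO (-1.09 ± 0.21, adjusted p = 0.000244).

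Tlr5, which recognises bacterial flagellin, fell by a similar amount from a lower level. In WT it stood at 44.0, 37.5, 46.1 and 43.7 CPM at PBS and at 30.1, 20.9, 19.1, 13.7 and 10.9 CPM after LPS. In KO it stood at 36.8, 38.3, 33.0, 41.6 and 48.8 CPM at PBS and at 13.3, 25.7, 14.2, 19.2 and 23 CPM after LPS. No LPS library reached a PBS library. The fall was 2.26-fold in WT (log2 fold change -1.17 ± 0.24, adjusted p = 0.00054) and 2.08-fold in KO (-1.06 ± 0.23, adjusted p = 0.000786).

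Replicates 1 and 5 of the WT LPS group stood at opposite ends of the group for several members, on both sides of the family. Replicate 5 held the highest Tlr2 and Tlr1 of that group and the lowest Tlr4, Tlr5, Tlr7 and Tlr13, although Tlr7 was called higher after LPS, whereas replicate 1 held the lowest Tlr2 and Tlr1 and the highest Tlr4, Tlr5, Tlr7, Tlr9 and Tlr13. The summed neutrophil markers in WT LPS replicates 1 to 5 were 159.7, 238, 411, 453 and 228 CPM, and the summed microglial markers 17431, 14215, 15709, 10882 and 11318 CPM. Replicate 1 was thus lowest for neutrophil and highest for microglial markers, whereas replicate 5 was the second lowest for both. In KO LPS mice replicate 2 had the highest Tlr4 and Tlr5 and replicate 5 the highest Tlr2. With 5 libraries per group no correlation was computed, and the part of cell composition in these orders was not tested.

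Among the endosomal receptors, only Tlr7 was called in both genotypes. Tlr7, a receptor for single-stranded RNA, lies on the X chromosome at chrX:166086758-166113605, 39.4 kb from Tlr8. It stood at 484, 466, 471 and 427 CPM in WT PBS and at 1085, 730, 679, 682 and 564 CPM in WT LPS. In KO it stood at 389, 448, 463, 479 and 433 CPM at PBS and at 529, 739, 996, 642 and 782 CPM after LPS. The PBS libraries were close to each other and all LPS libraries were above them. The rise was 1.62-fold in WT (log2 fold change 0.70 ± 0.18, adjusted p = 0.00349) and 1.67-fold in KO (0.74 ± 0.17, adjusted p = 0.00109).

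Tlr8, related to Tlr7 in sequence, had 115 to 428 reads per library, the fewest of the family in every PBS library. After LPS Tlr5 had fewer in some libraries, such as 128 against 194 in WT LPS replicate 5. WT PBS libraries held 12.9, 7.94, 12 and 10.5 CPM and WT LPS libraries 19.5, 12, 12.6, 20.9 and 16.5 CPM. KO PBS libraries held 7.06, 10.7, 11.5, 10.6 and 11.2 CPM and KO LPS libraries 10, 13.4, 25.6, 22.3 and 14.0 CPM. The groups overlapped in both genotypes. The log2 fold change was 0.59 ± 0.26 in WT (adjusted p = 0.0748, not called) and 0.74 ± 0.24 in KO (adjusted p = 0.017, called). Without KO LPS replicate 3, the highest library, the KO value was 0.55 and its call was lost, and without WT LPS replicate 2 the WT value was 0.70 and was called.

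Tlr13, a receptor for bacterial ribosomal RNA, is also X-linked and was among the most abundant members. In WT it held 380, 295, 341 and 276 CPM at PBS and 566, 349, 356, 407 and 320 CPM after LPS. In KO it held 263, 373, 293, 316 and 271 CPM at PBS and 286, 420, 765, 337 and 406 CPM after LPS. A single LPS library in each genotype, replicate 1 in WT and replicate 3 in KO, stood well above the others. The log2 fold change was 0.31 ± 0.23 in WT (adjusted p = 0.317) and 0.55 ± 0.22 in KO (adjusted p = 0.0467). Without WT LPS replicate 1 the WT value was 0.15, and without KO LPS replicate 3 the KO value dropped to 0.26 with an adjusted p of 0.231. The call was lost under 12 of 19 alternatives, among them leaving out KO PBS replicate 1, 3, 4 or 5 or KO LPS replicate 2 or 5, and apart from the one without KO LPS replicate 3 the value in these stayed between 0.50 and 0.58. The same mouse had the highest Tlr7 and Tlr8 of its group.

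Tlr9, which recognises unmethylated CpG DNA, was not called in either genotype. Its WT libraries ranged from 127 to 165 CPM at PBS and from 100.4 to 176 CPM after LPS. In KO the PBS libraries held 144, 131, 137, 155 and 147 CPM and the LPS libraries 72.3, 114, 103, 102 and 136 CPM. Only KO LPS replicate 5 reached the range of the KO PBS libraries. The log2 fold change was -0.14 ± 0.17 in WT (adjusted p = 0.541) and -0.44 ± 0.16 in KO (adjusted p = 0.0289, under the fold threshold). Without KO LPS replicate 5 the KO value was -0.55 and was called lower (adjusted p = 0.00824), whereas the adjusted p was over 0.05 in 6 of 19 alternatives. Leaving out each mouse in turn moved the WT value between -0.26, without WT LPS replicate 1, and -0.055, without WT LPS replicate 2 or 4.

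Tlr3, the receptor for double-stranded RNA, moved least. It stood at 100.2 ± 14.9 CPM (SD, n = 4) in WT PBS and 99.1 ± 13.3 CPM (n = 5) in WT LPS, and at 101 ± 5.81 CPM in KO PBS and between 61.1 and 109.7 CPM in KO LPS. The log2 fold change was -0.02 in WT (95% interval -0.33 to 0.30, adjusted p = 0.945) and -0.17 in KO (-0.47 to 0.13, adjusted p = 0.356). The intervals bound any change to under 0.5 on the log2 scale in either direction. An antisense transcript, Gm45542, overlaps 438 bases of its exons and had at most 3 reads in a library.

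**Figure D2:**
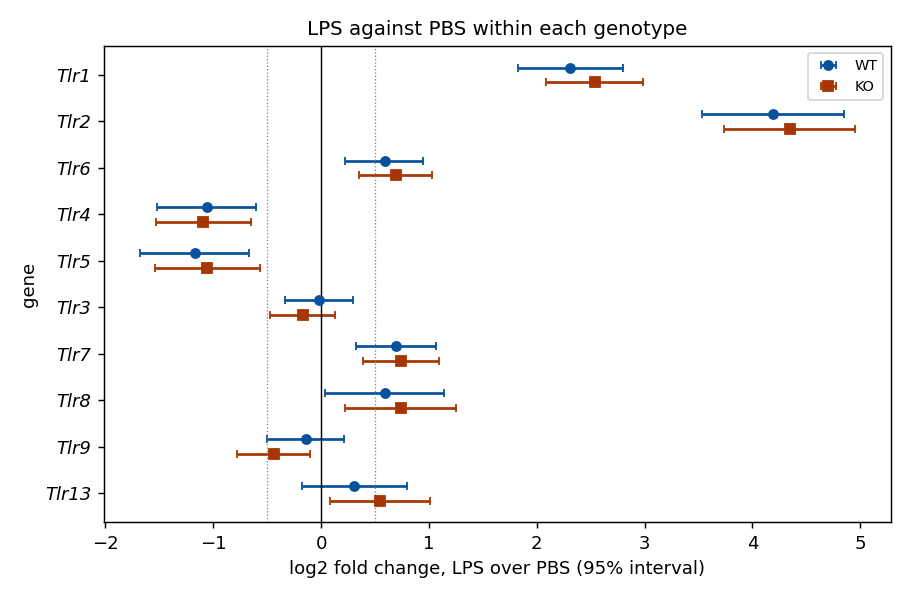
Log2 fold change of LPS over PBS for each member in WT (circles) and KO (squares) mice, with 95% intervals from the edgeR fit of 19 libraries and dotted lines at the fold threshold of 0.5. Tlr1 and Tlr2 stand apart on the right, Tlr4 and Tlr5 on the left, and Tlr3 lies across 0 in both genotypes.

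Levels of different genes were compared per length of exon, in CPM per kb of merged exons, with exact two-sided sign-flip permutation tests within libraries and p-values adjusted over 18 neighbour pairs. At PBS (n = 9 libraries, genotypes pooled) Tlr7 had the highest per-length level, 85.1 ± 5.72 CPM per kb (SD), followed by Tlr13 at 65.8 ± 9.22, Tlr9 at 41.7 ± 3.74 and Tlr4 at 22.9 ± 3.61. The order went on with Tlr2 at 19.6 ± 3.12 and Tlr3 at 18.8 ± 1.87 CPM per kb. These were not distinguished (adjusted p = 0.285, exact permutation), although Tlr2 was higher in 8 of 9 libraries. Below them came Tlr1 at 11.2, Tlr6 at 8.74, Tlr5 at 6.11 and Tlr8 at 2.06 CPM per kb. Each of the other 8 neighbour pairs kept its order in 9 of 9 libraries (adjusted p = 0.00541, exact permutation).

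After LPS (n = 10 libraries) Tlr2 took the first place at 377 ± 120 CPM per kb, ahead of Tlr7 at 140 ± 33.2 in 9 of 10 libraries. Tlr13 followed at 88.9 ± 30.2, Tlr1 at 60.4 ± 17.3, Tlr9 at 34.4 ± 8.66 and Tlr3 at 17.6 ± 3.14 CPM per kb. Tlr4 dropped from the fourth place to the eighth, at 10.9 ± 2.99 CPM per kb, and was not distinguished from Tlr6 at 13.7 ± 2.53 (adjusted p = 0.0725, exact permutation). Tlr8 at 3.28 and Tlr5 at 2.83 CPM per kb closed the order and were not distinguished either (adjusted p = 0.322, exact permutation). Lengths of the longest transcript in place of merged exons left Tlr9 and Tlr4 undistinguished at PBS (adjusted p = 0.178, exact permutation), since the merged exons of Tlr4, 7009 bases, are far longer than its longest transcript, 4115 bases. With these lengths Tlr4 was at 18.5 CPM per kb after LPS, in the seventh place between Tlr3 at 20.3 and Tlr6 at 15.0, and was distinguished from neither (adjusted p = 0.303 and 0.158, exact permutation). The order of Tlr13 over Tlr1 after LPS, held in 8 of 10 libraries (adjusted p = 0.0176), was not distinguished with these lengths either (7 of 10 libraries, adjusted p = 0.108, exact permutation).

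The summed per-length level of the 10 genes was 282 ± 25.1 CPM per kb at PBS and 749 ± 140 CPM per kb after LPS. Tlr2 made up 6.92% of this sum on average at PBS and 49.5% after LPS. Without Tlr2 the sum was 262 CPM per kb at PBS (234 to 301) and 372 CPM per kb after LPS (268 to 478), ranges that overlapped. The 5 cell-surface receptors held 23.9% ± 2.19 (SD, n = 4) of the sum in WT PBS and 59.1% ± 12.6 (n = 5) in WT LPS, and 24.5% ± 1.12 and 63.7% ± 5.28 in KO. Endosomal receptors thus made up most of the sum in all PBS libraries, and surface receptors in all KO LPS libraries, while the surface share ran from 41.2% to 72.3% in WT LPS. The Tlr2 share in WT LPS ran from 29.7% in replicate 1 to 60.6% in replicate 5, and in KO LPS from 47.3% to 56.3%.

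**Figure D3:**
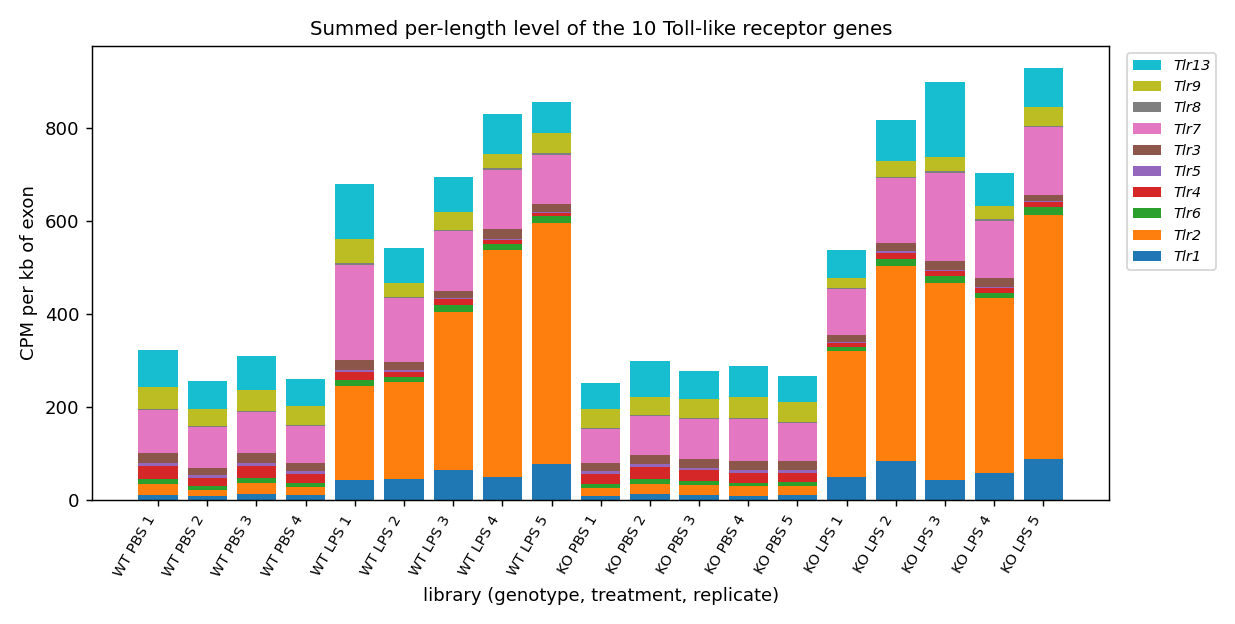
Summed level of the 10 Toll-like receptor genes in CPM per kb of exon (vertical axis) in each of the 19 libraries (horizontal axis), with 1 colour per gene. PBS bars reach 252 to 324 CPM per kb and LPS bars 538 to 931, with Tlr2 on average most of the added height. In WT LPS replicate 1 Tlr7 reached 205 and Tlr2 202 CPM per kb.

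Spread between mice of a group was larger after LPS than at PBS for each of the 10 members. The SD of log2 CPM went from 0.10 to 0.34 for Tlr7, from 0.18 to 0.49 for Tlr5 and from 0.27 to 0.52 for Tlr2, while the median over all tested genes went from 0.31 to 0.43. At PBS all 10 members were under the median spread of all genes. The comparison was not matched for level, and a gene could pass the filter with fewer reads than any member had.

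The second question was whether loss of DJ-1 altered the family. After LPS, a difference between KO and WT was called at an unadjusted p under 0.05 with a log2 fold change of at least 0.5, as used in the study, which held for 1.31% of all genes and for 0 of the 10 members (edgeR; DESeq2 also called 0). Log2 fold changes ran from -0.34 for Tlr9 to 0.20 for Tlr1. At an unadjusted p under 0.05 without the fold threshold, 1 of the 10 members passed, Tlr9 (log2 fold change -0.34, 95% interval -0.68 to -0.01, edgeR adjusted p = 1), against 2.57% of all genes. It was 134 ± 31.6 CPM in WT LPS and 105 ± 23.2 CPM in KO LPS (SD, n = 5 each), and the libraries overlapped. Leaving out each mouse moved the Tlr9 value between -0.45 and -0.23, and its unadjusted p was no longer under 0.05 without WT LPS replicate 1 or KO LPS replicate 1, among others. Tlr2 differed by 0.20 with a 95% interval of -0.33 to 0.72, and Tlr4 by -0.08 with an interval of -0.52 to 0.36. Leaving out single mice, the value ran from 0.051, without WT LPS replicate 1, to 0.38, without WT LPS replicate 5, for Tlr2, and from 0.061, without KO LPS replicate 5, to 0.35, without WT LPS replicate 5, for Tlr1. Over the 10 members the intervals reached from -0.68 to 0.72.

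At PBS, 0 of the 10 members were called between KO and WT, against 0.800% of all genes, and 0 had an unadjusted p under 0.05, against 1.04% (edgeR; DESeq2 also called 0). Log2 fold changes ran from -0.11 for Tlr5 to 0.04 for Tlr2, the smallest p was 0.651 in the edgeR fit, and the intervals reached from -0.63 to 0.60. The LPS response itself was compared between genotypes with an interaction term, for which 0 members and 0 genes overall (0%) passed an adjusted p of 0.05 with edgeR, and 0 members with DESeq2. At an unadjusted p under 0.05 it was 0 members and 0.961% of genes. The largest interaction values were -0.30 ± 0.23 for Tlr9 (unadjusted p = 0.213 in the edgeR fit) and 0.24 ± 0.32 for Tlr13. The calls of Tlr8 and Tlr13 in KO but not in WT mice are therefore not a shown difference between genotypes, with interaction values of 0.15 (95% interval -0.60 to 0.89) and 0.24 (-0.43 to 0.91).

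**Figure D4:**
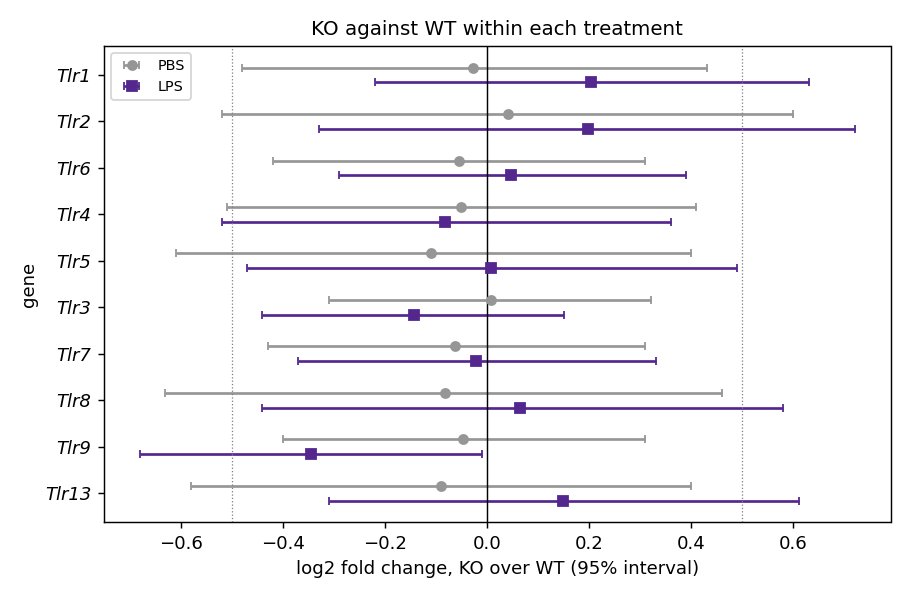
Log2 fold change of KO over WT for each member at PBS (circles) and after LPS (squares), with 95% intervals from the edgeR fit and dotted lines at 0.5. All point estimates lie between -0.34 and 0.20, and of the 20 intervals only that of Tlr9 after LPS leaves out 0.

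Genes that work with the receptors were read from 6 lists holding 40 genes, all of which were tested. LPS raised 13 and lowered 9 of them in WT and raised 14 and lowered 10 in KO, beside the shares of all genes given above. Between KO and WT, 0 of the 40 were called by edgeR or DESeq2, with 4 after LPS and 1 at PBS at an unadjusted p under 0.05 in edgeR, beside 2.57% and 1.04% of all genes. In the interaction 0 passed by either tool, and 0 at an unadjusted p under 0.05.

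The co-receptors of Tlr4 and Tlr2 moved in opposite directions. Cd14, which hands LPS and lipoproteins to the receptors, rose by a log2 fold change of 3.06 ± 0.26 in WT and 3.22 ± 0.24 in KO (adjusted p = 3.66e-08 and 5.08e-09). Ly96, which encodes MD-2, the subunit of the Tlr4 complex that binds LPS, changed by -1.36 ± 0.20 in WT and -1.18 ± 0.19 in KO (adjusted p = 2.13e-05 and 5.2e-05). Cd180 and Ly86, the RP105 and MD-1 pair related to Tlr4 and MD-2, also fell, by 3.5 and 0.95 on the log2 scale in WT. The scavenger receptor Cd36, which assists Tlr2 with Tlr6, changed by -2.54 in WT and -2.63 in KO. The list thus had 1 member higher and 4 lower in both genotypes, with the LPS-binding protein gene Lbp not called.

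Of the adaptors, Myd88, which serves all members except Tlr3, rose by 1.29 ± 0.16 in WT and 1.52 ± 0.15 in KO on the log2 scale. Tirap, the bridge from Tlr2 and Tlr4 to MyD88, rose by 0.79 and 0.90, and Pik3ap1, which links the receptors to PI3 kinase, by 1.39 and 1.52. Sarm1, an adaptor known as an inhibitor of TRIF signalling, changed by -1.30 in WT and -0.95 in KO. Ticam1, which encodes TRIF, the adaptor of Tlr3 and Tlr4, had log2 fold changes of 0.41 and 0.36 and stayed under the fold threshold, and Ticam2 was at -0.06 and -0.17.

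Folding and trafficking factors of the receptors went both ways. Unc93b1, the chaperone that carries the endosomal receptors, fell by 0.64 in WT and 0.65 in KO on the log2 scale, and the endosomal transporter Slc15a4 by 0.70 and 0.90. Lrrc59 and Ap3b1 rose, by 1.68 and 0.74 in WT, and Cnpy4, known for its part in bringing Tlr4 to the surface, was called lower in KO alone (-0.77, against -0.61 with an adjusted p of 0.0654 in WT). Of the proteases that trim endosomal receptors, Ctsl rose in both genotypes (0.81 and 0.89), Lgmn changed by -0.97 and -0.70, and Ctsb was called in KO alone (0.53, against 0.41 in WT). These differences between genotypes did not pass the interaction test.

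Downstream, 3 of 8 proximal kinases and ubiquitin ligases rose in WT and 4 of 8 in KO, and none fell. Ikbke, a kinase that acts on interferon regulatory factors, rose most, by 5.82 ± 0.52 in WT and 5.21 ± 0.46 in KO on the log2 scale. Traf3 rose by 1.14 and 1.2 and Traf6 by 0.62 and 0.87, while Irak2 was called in KO alone at 0.51 against 0.49 in WT. Among 8 negative regulators, Irak3, an inactive kinase that blocks MyD88 complexes, rose by 3.40 and 3.28, and the ubiquitin-editing enzyme Tnfaip3 by 3.73 and 3.83. Sigirr, an inhibitory member of the interleukin-1 receptor family, changed by -1.40 and -1.27, and Dok3 was called in WT alone (0.55 against 0.28 in KO).

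Markers of microglia and of other cells moved with LPS as well. The summed microglial list ranged from 25519.6 to 40119 CPM in WT PBS and from 10882 to 17431 CPM in WT LPS, and from 27008 to 41042 and 11227 to 17406 CPM in KO, with 9 of its 10 genes called lower in each genotype. Neutrophil markers summed to 52.5 to 97.6 CPM in WT PBS and 159.7 to 453 CPM in WT LPS, and to 20.9 to 185 and 100 to 447 CPM in KO. Of the 8 neutrophil genes 4 were called higher in WT and 5 in KO, although Ly6g stayed at or under 1.79 CPM in all libraries. Monocyte markers summed to 136 to 331 CPM in WT PBS and 395 to 661 CPM in WT LPS, and to 161 to 324 and 243 to 637 CPM in KO, with 5 of 6 genes called higher in each genotype. The list for border-associated macrophages had 3 of 6 genes lower in each genotype. It summed to 519 to 627 CPM in WT PBS and 302 to 518 CPM in WT LPS. In KO the sums were 473 to 636 CPM at PBS and 272 to 487 CPM after LPS. B cell markers summed to 162 to 327 CPM at PBS and to 18.9 to 39 CPM after LPS, most of it Ighm. T or NK cell markers reached 2.02 CPM at most, with at most 2 reads of Cd3e in a library, and of 3 dendritic cell genes tested 2 were lower in WT and 1 in KO. Astrocyte and neuron lists had 1 of 4 genes higher, the endothelial list 1 of 4 lower and the oligodendrocyte list 0 of 4 called in each genotype. The part of these cells in the receptor values was not tested. Without the library of each group that held the most oligodendrocyte markers, and with those markers as a covariate, Tlr1, Tlr2, Tlr4, Tlr5, Tlr6 and Tlr7 were called in the same direction in both genotypes.

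For each member the protein-coding gene with the most similar profile was found, as the smallest root mean square difference of centred log2 CPM over the 19 libraries among 14468 genes. By this choice the nearest gene lies below the median, so its distance and fold changes are descriptive only. Tlr2 was nearest to Gpr84, a receptor for medium-chain fatty acids on myeloid cells, at 0.23 against a median of 2.22 over all genes, and Gpr84 had log2 fold changes of 4.19 in WT and 4.59 in KO. Tlr4 was nearest to Manba, a lysosomal mannosidase, at 0.14 (median 0.81), and Tlr5 to Arhgap27 at 0.17 (median 0.85). Tlr1 was nearest to Mdn1 at 0.15 (median 1.35), Tlr6 to Lrrc8d, a subunit of volume-regulated anion channels, at 0.12 (median 0.65), and Tlr7 to Smg9 at 0.15 (median 0.66). Tlr3 was nearest to Ranbp6, Tlr8 to Gm5431, Tlr9 to Vps9d1 and Tlr13 to the transcription factor Sp3, at 0.12 to 0.21. No member was the nearest gene of another.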

How the data were processed

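Per the labels and methods, the authors trimmed paired 75 bp reads of stranded, ribosome-depleted total RNA with Cutadapt, aligned them with STAR 2.7.9a to GRCm39 and deposited raw read counts per Ensembl gene, 1 column per mouse. The strand setting of the counting is not given in the sources used here.

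From these counts, gene symbols, positions and exon lengths were taken from GENCODE M39 (GRCm39). All 19 libraries were fitted in 4 groups with edgeR 4.0.16 (R 4.3.3; TMM, filterByExpr with a minimum count of 10 and total of 15, quasi-likelihood test). CPM and log2 CPM (prior count 2) used TMM-scaled totals. Intervals (95%) cover only the spread between mice of a group and the counting error, as estimated in the fit. Floors of 3 reads cover counting error only. Levels per length were compared with SciPy 1.17.1. The filter removed no member, so the planned single-gene test for removed members was not needed. The code was tested on simulated data.

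All 10 members, Park7, 40 genes of 6 pathway lists and the nearest gene of each member were named by rule; members and lists were chosen with earlier results of these data known. The microglial, neutrophil, monocyte, border-associated macrophage, B, T or NK, dendritic, oligodendrocyte, astrocyte, neuron and endothelial lists gave summed CPM.

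Alternatives were DESeq2 1.42.0 and its size factors, other low-count filters, fits of the groups compared, a replicate block, omission of ribosomal RNA and mitochondrial genes, of each mouse, another threshold and another gene length; both oligodendrocyte alternatives were chosen after seeing the data.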

Additional observations from a re-analysis of the deposited data

Results flagged for a closer look

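Of 40 combinations of member and group checked for a library far from the others of its group, 1 stood out, where chance would give about 1 in 20, or 2. Tlr8 in KO PBS replicate 1 was 7.06 CPM, the lowest of the group, against 10.6 to 11.5 CPM in the other 4 libraries. This library also held the most oligodendrocyte markers of its group, 7265 CPM, and the part of that in the value was not tested.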

How the results depend on the processing

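The calls of Tlr1, Tlr2, Tlr4, Tlr5, Tlr6 and Tlr7 after LPS kept their direction and side of the threshold under every alternative run in both genotypes. The count of members called higher was 4 to 5 in WT and 4 to 6 in KO when each mouse was left out in turn, and that of members called lower 2 and 2 to 3. In KO the value of Tlr13 ran from 0.26 to 0.69 and its adjusted p from 0.0121 to 0.231, and the call was lost in 12 of 19 alternatives. Tlr8 in WT was called with the oligodendrocyte covariate (0.55), and Tlr9 in KO without KO LPS replicate 5 (-0.55). No member was called between genotypes or in the interaction under any alternative (edgeR or DESeq2).

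The count of all genes called between KO and WT moved with the setting; the cause was not tested beyond the change in genes or samples that each setting makes. After LPS it was 245, and became 854 with no low-count filter, 111 with at least 10 counts in every library, 471 with DESeq2, 105 with only the groups compared and 2 with the adjusted p. Leaving out each mouse gave 228 to 434, the highest without KO LPS replicate 5. At PBS it was 150, and became 680, 58, 332 and 1 with no filter, the stricter filter, DESeq2 and the adjusted p.

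Same-numbered mice deviated together in some pairs only (correlations from -0.57 to 0.58 over comparisons). Between PBS and LPS the mean correlation was 0.325 in WT and 0.255 in KO, and between genotypes -0.006 at PBS and -0.103 after LPS. Whether the numbers pair the mice was not settled by these values, and the main fit treated the mice as unpaired. With the replicate block, 234 genes were called at PBS between genotypes, 4 and 5 members were called higher after LPS in WT and KO, and Tlr13 in KO lost its call (0.51). Values that changed sign under the replicate block were Tlr3 in WT after LPS (0.036) and, between KO and WT at PBS, Tlr2 (-0.029) and Tlr4 (0.041).

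All other sign changes were in differences that no setting called. Without ribosomal RNA and mitochondrial genes Tlr3 in WT was 0.003. For KO against WT after LPS, Tlr5 was -0.013 with no filter and -0.007 with the stricter one, Tlr4 0.006 and Tlr7 0.072 without the libraries richest in oligodendrocyte markers, and Tlr7 0.019 with the covariate. At PBS, Tlr3 was -0.013 with DESeq2 size factors, -0.024 with no filter, -0.022 with the stricter one, -0.012 with DESeq2 and -0.083 without the oligodendrocyte-rich libraries, where Tlr2 was -0.098. The interaction of Tlr4 was 0.009 with DESeq2 size factors, 0.009 with DESeq2 and 0.19 without those libraries. Leaving out each mouse moved Tlr3 in WT between -0.082 and 0.064. KO against WT after LPS then ranged from -0.23 to 0.10 for Tlr4, -0.13 to 0.24 for Tlr5, -0.068 to 0.16 for Tlr6, -0.15 to 0.15 for Tlr7, -0.13 to 0.22 for Tlr8 and -0.14 to 0.31 for Tlr13. At PBS it ranged from -0.11 to 0.074 for Tlr1, -0.10 to 0.15 for Tlr2, -0.069 to 0.088 for Tlr3, -0.14 to 0.059 for Tlr4, -0.13 to 0.068 for Tlr6, -0.20 to 0.024 for Tlr8 and -0.11 to 0.013 for Tlr9. The interaction ranged from -0.18 to 0.15 for Tlr4, -0.025 to 0.35 for Tlr5, -0.021 to 0.21 for Tlr6, -0.089 to 0.21 for Tlr7, -0.044 to 0.29 for Tlr8 and -0.050 to 0.40 for Tlr13.

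With lengths of the longest transcript, 7 of 9 neighbour pairs at PBS and 5 of 9 after LPS differed, beside 8 and 7 with merged exons.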

Other observations

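The mouse genome holds further Toll-like receptor genes, of which Tlr11 and Tlr12, receptors for profilin of protozoan parasites, were in the table. Tlr12, chosen after its values were seen, stood at 64.3, 38.4, 59.7 and 41.0 CPM in WT PBS and at 12.8, 7.04, 7.65, 3.64 and 3.75 CPM in WT LPS. In KO it stood at 48.2, 57.2, 47.2, 44.3 and 40.9 CPM at PBS and at 6.75, 9.89, 7.66, 5.59 and 6.79 CPM after LPS, with no overlap between treatments. Tlr12 was 7.25-fold lower after LPS in WT (log2 fold change -2.86 ± 0.29, adjusted p = 3.01e-07, edgeR) and 6.48-fold lower in KO (-2.70 ± 0.28, adjusted p = 2.94e-07). In size these changes exceeded those of Tlr1 (2.31 in WT and 2.54 in KO). Between KO and WT it differed by 0.06 after LPS (95% interval -0.52 to 0.65).

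Tlr11 had 1 to 22 reads per library. Its log2 fold change was -0.82 ± 0.46 in WT (adjusted p = 0.17) and -1.35 ± 0.46 in KO (adjusted p = 0.0223), and the interaction did not pass the test (-0.52, 95% interval -1.91 to 0.86).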
